A study of Homo sapiens with 12 samples.

Results

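The miR-106b-25 and miR-106a-363 clusters are paralogs of the oncogenic miR-17-92 cluster. Their 7 main mature strands, hsa-miR-106b, hsa-miR-93 and hsa-miR-25 of the first cluster and hsa-miR-106a, hsa-miR-18b, hsa-miR-20b and hsa-miR-363 of the second, were described in SOX2-silenced human embryonal carcinoma cells (hECCs). Members were chosen by assay name, with minor (*) strands left out, and made up 7 of 501 assays in the normalised table. Of these, 6 carried the human name, while miR-93 was present only under its mouse name, mmu-miR-93, and that assay was taken for it. All 7 assays were on the same array card (card A) and gave a value in all 12 samples.

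MiRNA levels had been profiled with TaqMan array cards, on which each assay is a separate quantitative PCR, in 2 hECC lines. NTera-2 is a pluripotent line and 2102Ep a line with little capacity to differentiate. NTera-2 siSOX2 and NTera-2 NC cells had received 30 nM of an siRNA against SOX2 or of a non-targeting control siRNA (NC), and 2102Ep siSOX2 and 2102Ep NC cells 15 nM of the same siRNAs, and the transfection reagent also differed between the lines, so that siRNA dose, reagent and line cannot be told apart. Transfection lasted 6 h and RNA was taken after 72 h, from 3 samples per group, labelled as biological replicates. Each line is 1 established line, so a difference between NTera-2 and 2102Ep is a difference between these 2 lines. SOX2 mRNA is no target of the cards, and the knock-down itself could not be checked in these files.

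MiRNAs bind mRNAs mainly through the seed, bases 2 to 8 of the mature strand, and strands that share a seed share many predicted targets. The miR-17-92 family is best known for promoting cell cycle progression and survival, and its members are abundant in embryonic stem cells and germ cell tumours. MiR-17, miR-20, miR-93 and miR-106 belong to one seed family, which includes repressors of the cell cycle inhibitor p21, miR-18 forms another, and miR-25, miR-92 and miR-363 a further one. In the RefSeq annotation of GRCh38.p14 the miR-106b-25 precursors lie within 515 bases on the minus strand at chr7:100093560-100094074, inside the span of MCM7, a gene for a DNA replication factor. The miR-106a-363 precursors lie within 901 bases on the minus strand at chrX:134169378-134170278, together with second copies of miR-19b and miR-92a, whose mature strands are the same as those made from miR-17-92 on chromosome 13.

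The mature sequences are shown because neighbouring members differ by few bases, and the assays had to tell them apart. The seed is in capitals, each strand is written 5′ to 3′ from RefSeq, and all 7 members and the 4 miR-17-92 strands they are compared with below were matched by name. Assays without * were taken for the main strand of each hairpin, an assumption the deposited tables do not settle, since the study's supplement lists the other arm for some of these assays.
miR-106b: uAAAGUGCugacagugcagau
miR-93: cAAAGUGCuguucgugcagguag
miR-106a: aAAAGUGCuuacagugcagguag
miR-20b: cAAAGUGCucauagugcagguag
miR-17: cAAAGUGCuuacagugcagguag
miR-20a: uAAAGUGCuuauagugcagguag
miR-18b: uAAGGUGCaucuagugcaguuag
miR-18a: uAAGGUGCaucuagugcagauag
miR-25: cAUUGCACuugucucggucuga
miR-363: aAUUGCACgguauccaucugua
miR-92a: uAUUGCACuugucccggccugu

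With positions counted from 1 at the 5′ end, the miR-17-92 base given first and its paralog's base last, miR-106a differed from miR-17 only by C1A and miR-18b from miR-18a only by A20U. MiR-20b differed from miR-20a by U1C and U10C. MiR-93 differed from miR-17 by 4 of 23 bases and miR-25 from miR-92a by 4 of 22, whereas miR-363 shared only 10 of 22 bases with miR-92a, 7 of them the seed. The 4 members with the seed AAAGUGC share it with miR-17, miR-20a and miR-519d among the assays on the cards, and miR-25 and miR-363 share AUUGCAC with miR-92a, miR-32 and miR-367. Whether an assay also read the closest paralog was not tested.

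In the values below, a Ct is the PCR cycle at which the signal crosses a threshold, so a lower Ct is more RNA, and a cycle is read as a unit of log2. The dCt is the raw Ct minus a constant per sample, which on card A averages miR-16 and U6, a small nuclear RNA. Between 449 and 451 assays were measured in NTera-2 samples and 421 to 433 in 2102Ep samples. Of the 7 embryonal carcinoma markers miR-302a, miR-302b, miR-302c, miR-367, miR-371-3p, miR-372 and miR-373, all 7 were measured, at raw Ct 13.8 to 27.0 in NTera-2 and 16.1 to 21.9 in 2102Ep cells. The blood markers miR-223 and miR-486 lay at 24.7 to 26.8 in NTera-2 and 22.8 to 27.0 in 2102Ep cells. Of the mesenchymal markers miR-143 and miR-145, only miR-145 had a value in NTera-2 cells, at 23.4 to 26.0, and both in 2102Ep cells, at 22.3 to 27.5. The mesenchymal markers miR-199a-3p and miR-214 and the blood marker miR-451 were also planned. They are not among the marker assays followed here, so the marker lists are incomplete. In such bulk samples, fewer cells of a type and less RNA per cell cannot be told apart.

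The members spanned a wide range of Ct within every sample. MiR-106a gave the earliest Ct of the 7 in all 4 groups and miR-18b the latest. Among the 224 card A assays measured in all 12 samples, miR-106a held rank 1 or 2 (rank 1 being the lowest Ct) in every NTera-2 sample and rank 6 to 9 in every 2102Ep sample. MiR-18b held ranks 171 to 193 in NTera-2 and 219 to 223 in 2102Ep cells. Ranks of different assays also carry the efficiency of each PCR, which is not known, so an order of Ct is not strictly an order of abundance.

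**Figure D1:**
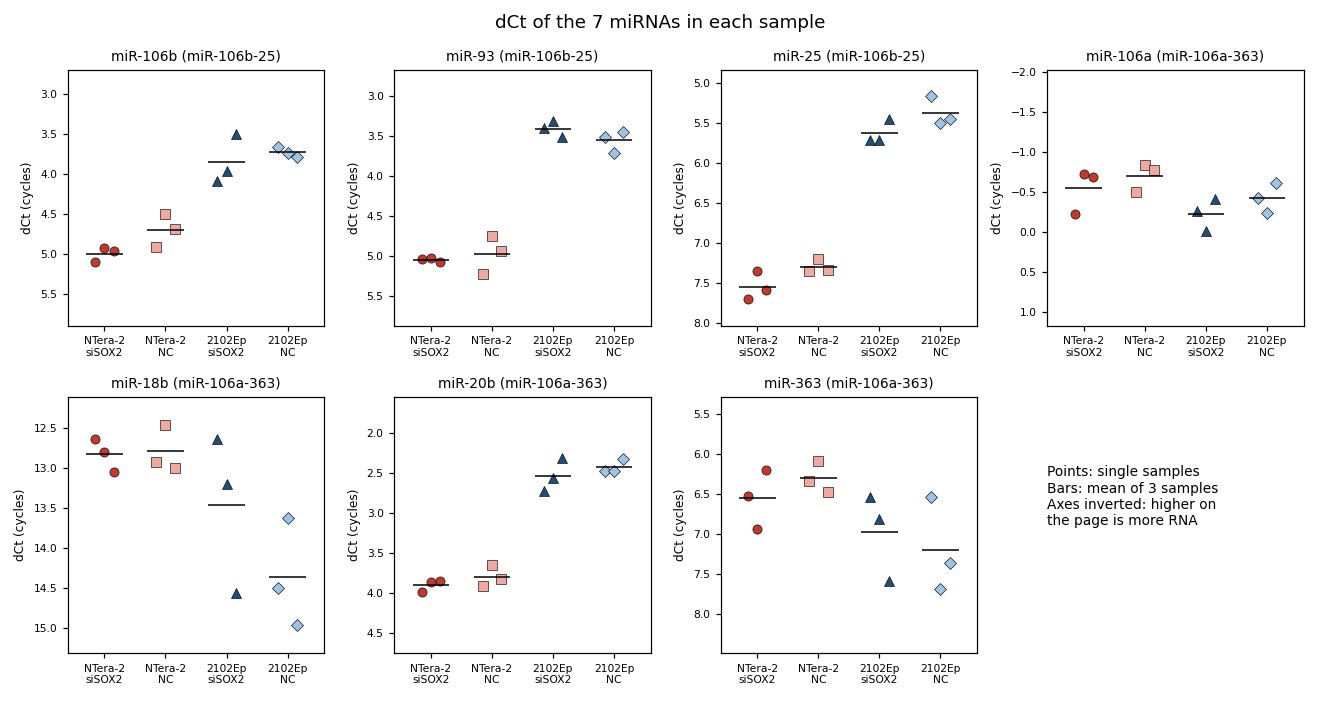
dCt in cycles for the 7 miRNAs, 1 panel each with its own axis, inverted so that more RNA is higher on the page; points are single samples of the 4 groups and bars the means of 3 samples. The siSOX2 and NC points of a line overlap in every panel except that of miR-106b in NTera-2 cells, with siSOX2 samples at 4.93 to 5.10 and NC samples at 4.51 to 4.91.

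Mean dCt placed the members in the order miR-106a, miR-20b, miR-106b, miR-93, miR-363, miR-25 and miR-18b in both NTera-2 groups. In both 2102Ep groups the order was miR-106a, miR-20b, miR-93, miR-106b, miR-25, miR-363 and miR-18b. The values of miR-106b and miR-93 overlapped in each group, with gaps of 0.05 and 0.26 cycles between their means in NTera-2 siSOX2 and NC cells and 0.44 and 0.18 cycles in 2102Ep siSOX2 and NC cells. Within a sample, miR-106b was ahead of miR-93 in all 3 NTera-2 NC samples, by 0.24 to 0.31, and behind it in all 3 2102Ep NC samples, at -0.35 to -0.02, while the siSOX2 samples of either line held both signs. All other neighbours had group values that did not overlap. The place of miR-363 differed between the lines: it lay 0.99 and 1.00 cycles ahead of miR-25 in NTera-2 siSOX2 and NC cells, and 1.34 and 1.82 cycles behind it in 2102Ep siSOX2 and NC cells.

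The first question was whether SOX2 knock-down altered these miRNAs. In NTera-2 cells 0 of 7 members passed an adjusted p of 0.05, against 5.54% of the 451 assays tested (25 assays, or 7 with the replicate numbers as a block). None passed an unadjusted p of 0.05 either, against 21.7% of all assays, by limma in both counts. In 2102Ep cells 0 of 7 passed the adjusted threshold, against 14.1% of 432 assays (61 assays), and 0 of 7 the unadjusted one, against 25% (108 assays). With the replicate numbers as a block, 18 assays were called higher and 30 lower there, and 0 members. SiSOX2 and NC samples did not overlap for 1 member in NTera-2 cells, where 29.0% of all assays showed no overlap, and for 0 members in 2102Ep cells, where 31.9% did. The median log2 change (siSOX2 minus NC) of the 7 was -0.16 in NTera-2 cells, beside -0.27 for all assays tested, and -0.11 in 2102Ep cells, beside 0 for all assays. In NTera-2 cells, where the replicate numbers were taken to pair the samples, miR-106b, miR-25, miR-106a and miR-20b were lower in siSOX2 than in NC cells in all 3 pairs, 4 of 7 members, against 36.6% of the 445 assays complete in these samples. Their adjusted p with the replicate block was 0.48 for miR-106b, 0.52 for miR-25, 0.63 for miR-106a and 0.79 for miR-20b (limma).

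**Figure D2:**
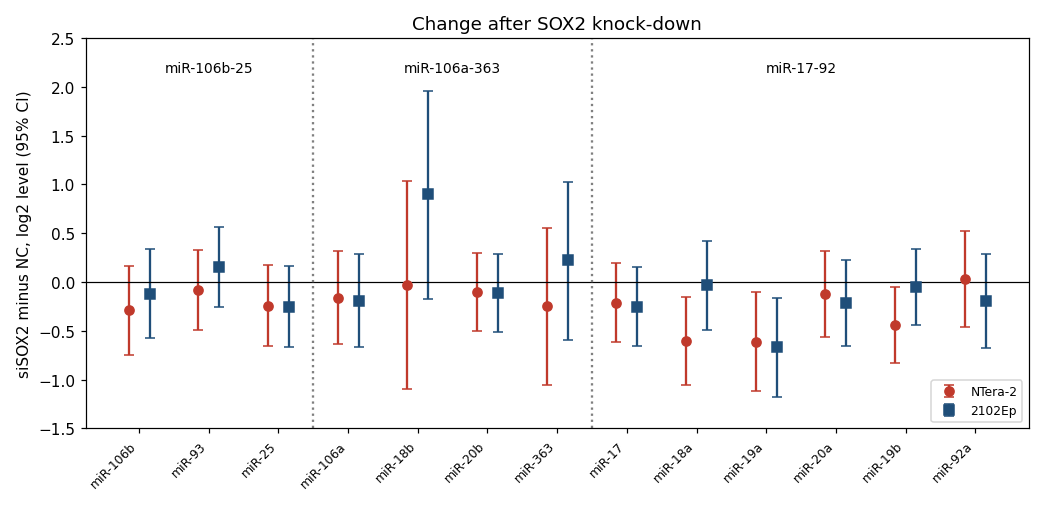
Log2 change in level, siSOX2 minus NC, with 95% confidence intervals from the limma fit, for the 7 members and the 6 main strands of miR-17-92, NTera-2 (circles) left of 2102Ep (squares); the dotted lines part the clusters. Every interval of the 7 members includes 0, and those of miR-18b are the widest, running from -0.17 to 1.96 in 2102Ep cells.

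In the miR-106b-25 cluster no fitted knock-down change was larger than 0.29 on the log2 scale in either line. MiR-106b, a repressor of p21, had dCt values of 5.10, 4.93 and 4.97 in NTera-2 siSOX2 cells, against 4.91, 4.51 and 4.69 in NTera-2 NC cells. These siSOX2 samples all lay above the NC samples in dCt, so the groups did not overlap, but the log2 change of -0.29 ± 0.20 (SE, adjusted p = 0.47) did not pass the test. In 2102Ep siSOX2 cells miR-106b had dCt values of 4.08, 3.97 and 3.50, against 3.67, 3.73 and 3.79 in 2102Ep NC cells. The groups overlapped, with a log2 change of -0.12 (95% confidence interval -0.57 to 0.34).

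MiR-93, which shares the miR-106b seed, had dCt values of 5.03, 5.03 and 5.08 in NTera-2 siSOX2 cells, against 5.23, 4.74 and 4.93 in NTera-2 NC cells, and 3.39, 3.31 and 3.51 in 2102Ep siSOX2 cells, against 3.51, 3.71 and 3.44 in 2102Ep NC cells. Its groups overlapped in both lines, and its log2 changes were -0.08 (interval -0.49 to 0.33) in NTera-2 and 0.15 (interval -0.26 to 0.56) in 2102Ep cells. MiR-25, of the miR-92 seed family, had dCt values of 7.71, 7.35 and 7.58 in NTera-2 siSOX2 cells, against 7.36, 7.20 and 7.34 in NTera-2 NC cells. In 2102Ep siSOX2 cells it had 5.72, 5.71 and 5.46, against 5.17, 5.50 and 5.45 in 2102Ep NC cells. The changes of -0.25 (interval -0.66 to 0.17) in NTera-2 and -0.26 (interval -0.67 to 0.16) in 2102Ep cells were of like size, and the siSOX2 samples reached into the range of the NC samples in both lines. By replicate number, each siSOX2 sample of miR-25 lay above its NC sample in dCt in both lines. With the replicate block its adjusted p was 0.52 in NTera-2 and 0.47 in 2102Ep cells (limma).

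In the miR-106a-363 cluster, miR-106a, the member nearest in sequence to miR-17, had dCt values of -0.23, -0.72 and -0.70 in NTera-2 siSOX2 cells, against -0.51, -0.84 and -0.78 in NTera-2 NC cells. In 2102Ep siSOX2 cells it had -0.26, -0.02 and -0.42, against -0.43, -0.24 and -0.62 in 2102Ep NC cells. The groups overlapped in both lines, at log2 changes of -0.16 (interval -0.64 to 0.32) in NTera-2 and -0.19 (interval -0.67 to 0.29) in 2102Ep cells. By replicate number, each siSOX2 sample lay above its NC sample in dCt in both lines. With the replicate block the adjusted p was 0.63 in NTera-2 and 0.53 in 2102Ep cells (limma). How many of all assays did so in 2102Ep cells was not counted. MiR-20b, the paralog of miR-20a, had the narrowest intervals of the cluster, with changes of -0.10 (interval -0.50 to 0.30) in NTera-2 and -0.11 (interval -0.51 to 0.29) in 2102Ep cells. Its dCt values were 3.85 to 3.99 in NTera-2 siSOX2 and 3.65 to 3.91 in NTera-2 NC cells, and 2.31 to 2.73 in 2102Ep siSOX2 and 2.33 to 2.48 in 2102Ep NC cells.

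MiR-363, of the miR-92 seed family, varied more between replicates. It had dCt values of 6.53, 6.93 and 6.20 in NTera-2 siSOX2 cells, against 6.34, 6.09 and 6.47 in NTera-2 NC cells, and 6.53, 6.81 and 7.58 in 2102Ep siSOX2 cells, against 6.53, 7.68 and 7.36 in 2102Ep NC cells. Its changes were -0.25 (interval -1.06 to 0.55) in NTera-2 and 0.22 (interval -0.59 to 1.02) in 2102Ep cells.

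MiR-18b had the largest fitted change of the 7, in 2102Ep cells, where its Ct was late. Its raw Ct there was 30.9, 31.1 and 33.0 in siSOX2 cells, against 32.8, 31.7 and 33.3 in NC cells. The dCt values were 12.64, 13.20 and 14.57 in 2102Ep siSOX2 cells, against 14.50, 13.63 and 14.97 in 2102Ep NC cells. Replicates 1 and 2 of the siSOX2 group lay below all NC samples in dCt and replicate 3 lay among them. The log2 change was 0.90 ± 0.48 (SE, adjusted p = 0.29, limma), or 1.86-fold, and it did not pass the test. Without replicate 3 of the siSOX2 group it was 1.44 at an adjusted p of 0.043, so this 1 sample decided the call. In NTera-2 cells, where miR-18b was earlier, at dCt 12.64, 12.81 and 13.05 in siSOX2 and 12.93, 12.47 and 13.00 in NC cells, the change was -0.03 (interval -1.10 to 1.03).

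The knock-down changes were then compared between the lines. The difference of the changes, NTera-2 minus 2102Ep, passed the adjusted threshold for 0 of 7 members, against 4.42% of 385 assays (17, or 1 with the replicate block), and an unadjusted p of 0.05 for 0 of 7, against 22.1% of assays. Differences ran from -0.93 (interval -2.44 to 0.58) for miR-18b to 0.03 (interval -0.65 to 0.71) for miR-106a. MiR-363 had -0.47 (interval -1.61 to 0.67), and the intervals of the other members lay between -0.82 and 0.59.

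The 6 main strands of miR-17-92 were set beside the members, and 0 of 6 passed the adjusted threshold in either line. Among all assays 5.54% passed it in NTera-2 and 14.1% in 2102Ep cells, and 21.7% and 25% passed an unadjusted p of 0.05 (limma). In NTera-2 cells, at an unadjusted p of 0.05, limma gave 3 of them, miR-18a with -0.60 (adjusted p = 0.12), miR-19a with -0.61 (adjusted p = 0.15) and miR-19b with -0.44 (adjusted p = 0.17). In 2102Ep cells only miR-19a, a strand with a seed that none of the 7 members has, was below that unadjusted level, with -0.67 (adjusted p = 0.084). Their median changes were -0.33 in NTera-2 and -0.21 in 2102Ep cells. Of the other assays that share a member's seed, miR-519d, a placental C19MC miRNA with the miR-106b seed, fell in 2102Ep cells, with a log2 change of -1.18 ± 0.28 (SE, adjusted p = 0.019, limma). It had dCt values of 6.75, 6.32 and 6.55 in 2102Ep siSOX2 cells, against 5.50, 5.12 and 5.45 in 2102Ep NC cells, with no overlap. It did not pass when set against RNU44 and RNU48 (-0.83, adjusted p = 0.18), nor without siSOX2 replicate 1 (adjusted p = 0.073), NC replicate 2 (0.063) or NC replicate 3 (0.052). MiR-32 and miR-367 did not pass in either line. Among the marker assays, miR-145 rose by 1.49 (adjusted p = 0.012, or 0.071 with the replicate block) in NTera-2 siSOX2 against NC cells. MiR-372 fell there by 1.40 (adjusted p = 0.027, or 0.068 with the block, and above 0.05 without any of 4 samples in turn). In 2102Ep cells 0 of 11 passed. There miR-143 had 3.48 (adjusted p = 0.083, or 0.022 with the replicate block, 0.044 set against miR-16 alone and 0.012 without NC replicate 2). It had a value in only 2 of the 3 siSOX2 samples, at dCt 4.11 and 4.72, and NC values spread from 6.15 to 9.11. The part of these changes in the members' values was not tested.

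The second question was how far the lines themselves differed. The raw Ct of the reference RNAs differed between the lines, which matters for every such value. Whether the level of these RNAs or the RNA input differed was not tested. Mean raw Ct in NTera-2 NC and 2102Ep NC cells was 10.8 ± 0.179 and 14.9 ± 0.0475 for U6 on card A and 18.6 ± 0.449 and 21.6 ± 0.242 for miR-16 (SD, n = 3 each). For RNU44 the means on card A were 16.3 in NTera-2 NC and 17.3 in 2102Ep NC cells, and for RNU48 16.8 and 18.5. The mean raw Ct over the 224 complete card A assays was 24.3 in NTera-2 NC and 24.2 in 2102Ep NC cells. The study normalised each line to its global mean miRNA expression when it compared the undifferentiated lines. Here too raw Ct was set against the mean of all assays of each card, with the other references as alternatives.

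Set against the mean of all assays, all 7 members were higher in NTera-2 than in 2102Ep cells. In NC cells 7 of 7 passed the adjusted threshold in this direction, against 39.1% of 386 assays, and the values of 7 of 7 did not overlap, against 41.2% of assays. After SOX2 knock-down it was again 7 of 7, against 41.3% of 385 assays called higher and 43.1% higher with no overlap. The 7 split by size. In NC cells miR-18b was 5.22 ± 0.44 higher on the log2 scale, miR-363 4.54 ± 0.30 and miR-106a 3.93 ± 0.22 (SE), whereas miR-106b was 2.68 ± 0.23, miR-20b 2.28 ± 0.22, miR-93 2.24 ± 0.22 and miR-25 1.72 ± 0.21 higher. Adjusted p-values of the 7 ran from 2.2e-05 to 0.00041 (limma). In siSOX2 cells the differences were 4.46, 4.25 and 4.14 for miR-18b, miR-363 and miR-106a, and 2.68, 2.46, 2.19 and 1.91 for miR-106b, miR-20b, miR-93 and miR-25.

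The raw values show the same split, but are no separate support. Mean raw Ct over the complete card A assays was nearly equal, at 24.3 in NTera-2 NC and 24.2 in 2102Ep NC cells. MiR-363 had raw Ct 21.4, 20.5 and 21.1 in NTera-2 NC cells, against 24.8, 25.7 and 25.7 in 2102Ep NC cells. Its rank on card A was 42 to 48 in NTera-2 NC and 134 to 152 in 2102Ep NC cells, where 1 is the earliest Ct. MiR-106a had raw Ct 14.5, 13.6 and 13.8 in NTera-2 NC cells, against 17.8, 17.8 and 17.7 in 2102Ep NC cells. MiR-25 had 22.4, 21.6 and 21.9 in NTera-2 NC cells, against 23.4, 23.6 and 23.8 in 2102Ep NC cells, and ranks of 57 to 60 and 93 to 98 in these groups. MiR-106b held rank 22 in all 3 NTera-2 NC samples, against 54 to 58 in 2102Ep NC samples, and miR-93 ranks 24 to 27, against 50 to 55. MiR-20b had ranks 14 and 15 in NTera-2 NC samples, against 29 to 33 in 2102Ep NC samples. A rank within a sample does not depend on the reference, but it is itself relative to the other assays of the card. Every member ranked earlier in every NTera-2 sample than in any 2102Ep sample. How many of the other card A assays did so was not counted, so this cannot be called particular to the members. The nearest share at hand is of another measure, levels set against the mean of all assays, over both cards and NC groups only. By it, 41.2% of all assays were higher with no overlap in NTera-2 NC than in 2102Ep NC cells.

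The direction of most of these differences in level, however, depended on the reference. With the deposited dCt (miR-16 and U6 on card A), the members called higher in NTera-2 NC cells were miR-18b with 1.57 and miR-363 with 0.89. This was 2 of 7, against 2.07% of all assays of both cards. Another 4 were called lower, miR-106b with -0.97, miR-20b with -1.37, miR-93 with -1.41 and miR-25 with -1.93, against 94.0% of all assays. MiR-106a had 0.28 (adjusted p = 0.28, limma). With U6 alone, 1 member was higher, against 2.56% of card A assays, and 4 lower, against 93.2%. With RNU44 and RNU48, 6 members were higher, against 13.7% of assays, and 0 lower, against 59.6%, and miR-25 had 0.19 (adjusted p = 0.51). The whole table moved with the reference, since 151 assays were called higher and 129 lower with the mean of all assays, and the median of all assays was 0.17 with that mean, -5.35 with the deposited dCt, -4.04 with U6 and -1.68 with RNU44 and RNU48. A change of reference shifts all assays of a card alike, so the differences between members stayed as they were.

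**Figure D3:**
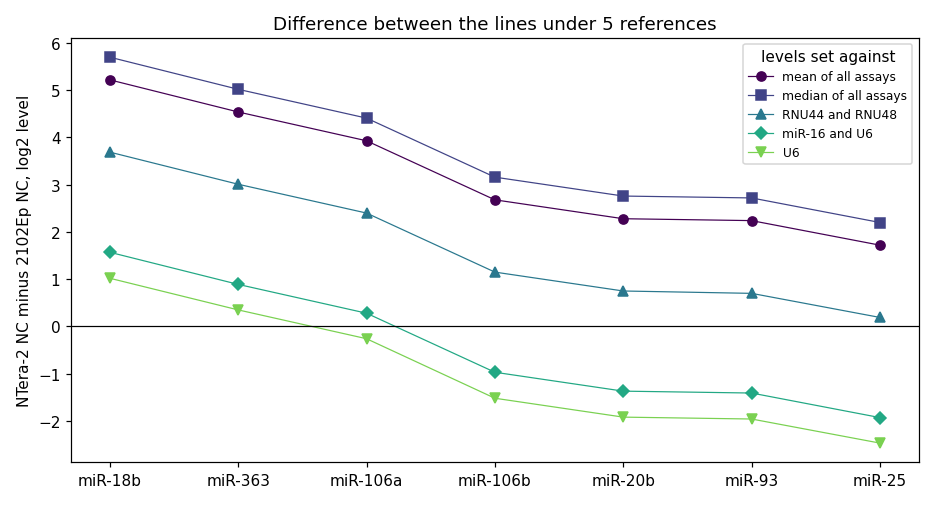
Log2 level of each member in NTera-2 NC minus 2102Ep NC cells (vertical axis) with levels set against 5 references (lines and symbols), members ordered by size. The 5 lines run parallel, from 5.22 for miR-18b to 1.72 for miR-25 with the mean of all assays and from 1.02 to -2.47 with U6, with the same order throughout; miR-18b and miR-363 stay above 0 with all 5 references, and the other 5 members do not.

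Differences within a sample, in which the reference cancels, were therefore used to compare the paralogs. The mean level of the 4 miR-106a-363 strands over that of the 3 miR-106b-25 strands was 0.16, 0.14 and 0.02 on the log2 scale in NTera-2 NC cells, against -1.66, -1.57 and -1.78 in 2102Ep NC cells. In siSOX2 cells it was 0.21, 0.05 and 0.27 in NTera-2 cells, against -1.01, -1.31 and -1.85 in 2102Ep cells. The lines did not overlap in either condition, with shifts of 1.78 in NC and 1.57 in siSOX2 cells. The strands averaged did not share this shift alike. In NC cells miR-106b, miR-93 and miR-25 over miR-20b shifted by 0.40, -0.04 and -0.56, and over miR-363 by -1.87, -2.31 and -2.82. Within each line the siSOX2 and NC samples did overlap, at shifts of 0.07 in NTera-2 and 0.28 in 2102Ep cells.

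MiR-106a and miR-17, which differ by 1 base, were near the same Ct in 2102Ep cells and apart in NTera-2 cells. MiR-106a was above miR-17 by 1.24, 1.72 and 1.52 in NTera-2 siSOX2 cells and 1.37, 1.34 and 1.59 in NTera-2 NC cells on the log2 scale. In 2102Ep siSOX2 cells this difference was -0.13, -0.19 and 0.01, and in 2102Ep NC cells -0.20, -0.20 and -0.10. The shift between the lines was 1.60 in NC and 1.59 in siSOX2 cells. MiR-363 lay below miR-92a by 0.84 to 1.18 in NTera-2 NC cells, against 2.19 to 3.03 in 2102Ep NC cells, a shift of 1.62. In siSOX2 cells the lines overlapped for this pair. MiR-18b over miR-18a averaged -7.50 ± 0.139 in NTera-2 NC and -9.19 ± 0.768 in 2102Ep NC cells (SD, n = 3 each), a shift of 1.69.

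Other pairs moved the opposite way or little. MiR-25 over miR-92a averaged -2.05 ± 0.190 in NTera-2 NC and -0.85 ± 0.0123 in 2102Ep NC cells, a shift of -1.20, and -2.33 ± 0.0477 in NTera-2 siSOX2 and -0.91 ± 0.134 in 2102Ep siSOX2 cells, a shift of -1.42. MiR-20b over miR-20a averaged -2.71 in NTera-2 NC and -2.14 in 2102Ep NC cells, a shift of -0.57 with no overlap. MiR-93 over miR-17 averaged -4.24 in NTera-2 NC and -4.14 in 2102Ep NC cells, and the lines overlapped, whereas in siSOX2 cells it averaged -4.10 in NTera-2 and -3.74 in 2102Ep cells, a shift of -0.36 with no overlap. Of the 6 paralog pairs, 5 did not overlap between the NC groups of the lines, beside 77.6% of the 24976 pairs of complete card A assays, and the median absolute shift was 1.40 for the 6 pairs, beside 2.49 for all pairs. Pairs that part the lines are thus common on this card. After knock-down within a line, 2 of 6 pairs did not overlap in NTera-2 cells, beside 28.9% of all pairs, namely miR-18b over miR-18a with a shift of 0.57 and miR-25 over miR-92a with -0.28. In 2102Ep cells it was 1 of 6, miR-93 over miR-17 with 0.40, beside 33.4%.

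**Figure D4:**
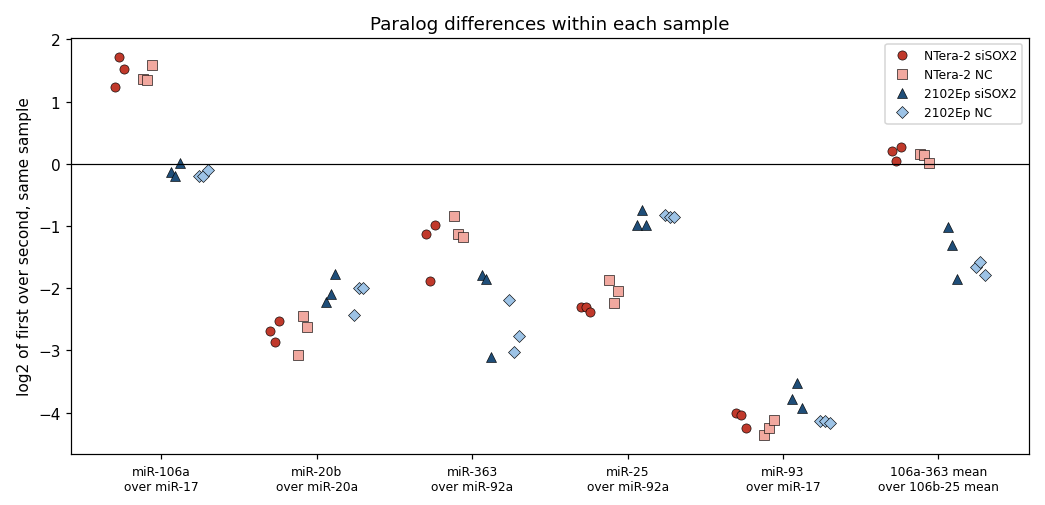
Log2 difference between 2 miRNAs of the same sample (vertical axis) for 5 paralog pairs and for the means of the clusters, each point 1 sample of the 4 groups. NTera-2 samples lie at 1.24 to 1.72 for miR-106a over miR-17 and 2102Ep samples at -0.20 to 0.01, while siSOX2 and NC samples of the same line lie close together for most pairs.

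Members of one cluster did not all move alike over the 12 samples. The likeness of 2 profiles was measured as the root mean square difference of their log2 levels (minus dCt), each centred on its own mean over the 12 samples. Between card A assays this measure does not depend on the reference. The 12 samples hold both lines, so it includes the difference between the lines given above, which was not separated from variation within a line. In NC cells that difference was 2.28 for miR-20b, beside 2.68, 2.24 and 1.72 for miR-106b, miR-93 and miR-25. It was 3.93, 5.22 and 4.54 for miR-106a, miR-18b and miR-363. A small distance is therefore no sign of varying together within a line. MiR-20b lay 0.81 from the mean profile of miR-106a-363, its own cluster, and 0.107 from that of miR-106b-25, whose members lay 0.141 (miR-93), 0.231 (miR-25) and 0.240 (miR-106b) from it although they made up that mean. MiR-106a lay 0.285, miR-363 0.365 and miR-18b 0.664 from the mean of miR-106a-363. Assays of card B carry another constant, which differs between the lines by its own amount, and are left out here. Among the other card A assays complete in all 12 samples, the 5 nearest to miR-106b-25 were miR-186 (0.148), miR-17 (0.155), miR-454 (0.164), miR-19b (0.172) and miR-302b (0.181). The 5 nearest to miR-106a-363 were miR-29c (0.283), miR-28 (0.302), miR-18a (0.368), miR-16 (0.436), itself part of the dCt constant, and miR-92a (0.478).

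The minor strands of the 3 clusters, marked *, were run on card B, which has its own constants, and were compared between the lines against the mean of that card. In NTera-2 NC against 2102Ep NC cells 8 of the 10 tested were called higher, against 39.1% of all 386 assays. MiR-106b* had raw Ct 20.3, 19.1 and 19.7 in NTera-2 NC cells, against 26.1, 26.5 and 25.7 in 2102Ep NC cells, and was 6.88 ± 0.33 higher on the log2 scale (SE, adjusted p = 2e-05, limma), beside 2.68 for miR-106b itself. MiR-93* was 3.12 and miR-106a* 2.51 higher. The other strands called higher were of miR-17-92, miR-17* with 5.99, miR-19b-1* with 4.11, miR-18a* with 4.05, miR-20a* with 2.70 and miR-92a-1* with 2.18. MiR-20b*, with -1.42 (adjusted p = 0.095), and miR-363*, with 0.32 (adjusted p = 0.61), did not pass. MiR-20b* was called lower without NTera-2 NC replicate 2, at -2.11 (adjusted p = 0.0089). It was also called lower against the median of the card, at -1.85 (adjusted p = 0.033, limma). Set against RNU44 and RNU48, 4 of the 10 were higher and 2 lower, against 13.7% and 59.6% of all assays, with miR-106b* at 4.56. The 2 lower were miR-20b* with -3.73 and miR-363* with -1.99. With the deposited dCt, whose card B constant differs in kind between the lines, all 10 were lower, against 94.0% of all assays. In siSOX2 cells the same comparison gave 7.17 for miR-106b*, 3.43 for miR-93* and 1.86 for miR-106a*.

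MiR-25* had a value in all 6 NTera-2 samples, at dCt 2.33 to 3.11, and no value was listed for it in any 2102Ep sample. The same held for miR-92a-2*, the minor strand specific to the X chromosome copy, at raw Ct 29.2 to 31.4 in NTera-2 cells, and for miR-19a*. A missing value is not a measured 0, so no fold is given. After SOX2 knock-down 0 of 13 minor strands passed the adjusted threshold in NTera-2 and 0 of 10 in 2102Ep cells (limma). Among all assays 5.54% passed it in NTera-2 and 14.1% in 2102Ep cells, and 21.7% and 25% passed the unadjusted one. At an unadjusted p of 0.05 there was 1 in NTera-2 cells, miR-19a*, and 3 in 2102Ep cells, miR-106a* with 0.86 (adjusted p = 0.17), miR-17* with 1.23 (adjusted p = 0.072) and miR-18a* with -0.79 (adjusted p = 0.11). In 2102Ep cells miR-17* passed when set against RNU44 and RNU48, at 1.79 (adjusted p = 0.031), and without NC replicate 2, at 1.62 (adjusted p = 0.024), and miR-18a* without siSOX2 replicate 3, at -1.07 (adjusted p = 0.039).

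The 6 main strands of miR-17-92 were also higher in NTera-2 than in 2102Ep NC cells with the mean of all assays as the reference. All 6 of 6 were called, against 39.1% of all assays, with a median of 2.65, beside 2.68 for the 7 members. They ran from 2.30 for miR-19a to 3.53 for miR-18a. This direction too turned with the reference. With RNU44 and RNU48 5 were higher, against 13.7% of all assays. With the deposited dCt 5 were lower, against 94.0% of all assays of both cards, and with U6 6 were lower, against 93.2% of card A assays. Of the other seed relatives, miR-32 and miR-367 were 2.12 and 2.23 higher in NTera-2 NC cells (-1.53 and -1.42 with the deposited dCt), while miR-519d was 4.88 lower, and lower with all 5 references. It had dCt values of 13.47, 13.83 and 14.35 in NTera-2 NC cells, against 5.50, 5.12 and 5.45 in 2102Ep NC cells.

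Marker assays differed between the lines as well. Set against the mean of all assays, 5 of the 7 embryonal carcinoma markers were higher in NTera-2 NC than in 2102Ep NC cells, beside 39.1% of all assays. These 5 were higher by 1.38 to 2.81, while miR-371-3p and miR-372 had -5.92 and -6.13. Of the other markers, miR-145 was 1.94 lower, miR-223 2.71 lower and miR-486 1.29 higher, the last with its call lost without any of 3 samples in turn. These directions too turned with the reference. With the deposited dCt and with U6, 0 of the 7 embryonal carcinoma markers were called higher and 7 lower. Among all assays of both cards 94.0% were lower with the deposited dCt, and 93.2% of card A assays with U6. With RNU44 and RNU48, 2 were higher and 2 lower, beside 13.7% and 59.6% of all assays. MiR-486 had -2.36 with the deposited dCt, -2.91 with U6 and -0.25 (adjusted p = 0.58, limma) with RNU44 and RNU48. The part of these differences in the members' values was not tested.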

How the data were processed

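Raw Ct and dCt, both on the log2 scale, were deposited by the authors, who exported Ct from the TaqMan cards and subtracted a constant per sample and card. A further deposited table, of the authors' own fold changes and p-values, was not used. In 1 raw column (2102Ep siSOX2 replicate 3) values stood out of line from row 106 on. Moving them by 1 row put 99.7% of 338 values within 0.02 cycles of the constant, so its raw Ct was rebuilt by adding the constant to the dCt. The dCt was not affected. The card B constant of 2102Ep samples was the Ct of a single assay, and U6 on card B was used for NTera-2 only. RNU44 and RNU48 stood once per card with no card named, and their order was inferred from RNU48 matching the NTera-2 card B constant.

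Values with raw Ct under 40 counted as measured. Assays with at least 2 values per arm were tested with limma 3.58.1 in R 4.3.3 (lmFit, eBayes, two-sided), on minus dCt over all 12 samples for knock-down and on 6 samples for the lines, with Benjamini-Hochberg adjustment over all assays, called at an adjusted p under 0.05. The fit was tested on simulated data. The miRNAs named were the 7 members, strands of the other lists past the threshold, the partners of the paralog pairs, the 5 assays most like each cluster and the reference RNAs. Members and lists were chosen with earlier results of these data known. Same-numbered siSOX2 and NC samples of NTera-2 deviated together (r = 0.118, 0.265 and 0.159 over 445 assays), so the numbers were taken to pair them. In 2102Ep cells r was 0.158, 0.169 and 0.064. Differently numbered siSOX2 and NC samples had r of -0.178 to 0.0538 in NTera-2 and -0.216 to 0.0364 in 2102Ep cells. In both lines these lay below every same-numbered value. Deviations were taken from each group's mean, so positive same-numbered values force the others to be negative on balance. The contrast is therefore no separate support for pairing. The replicate block was fitted for both lines, but counts over pairs of all assays were made for NTera-2 only. No replicate columns held identical values. P-values measure the spread between samples labelled as biological replicates. Alternatives were other references, filters, samples, eBayes with a trend, a replicate block and each sample left out. Sequences and loci came from RefSeq (GRCh38.p14), and PCR gives no molecule counts, so the number of samples limits the precision.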

Additional observations from a re-analysis of the deposited data

How the results depend on the processing

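In 2102Ep cells 0 of 7 members passed after knock-down under every alternative tried, except that leaving out 1 sample gave 0 to 1, the 1 being miR-18b without siSOX2 replicate 3. In NTera-2 cells and for the difference between the lines the count was 0 throughout. The replicate block changed no member's call in any comparison (0 called in each knock-down comparison and 7 between the lines), and moved the count of all assays to 7 from 25 in NTera-2, to 1 from 17 for the difference and to 48 from 61 in 2102Ep cells. The miR-18b change in 2102Ep cells was 0.48 to 1.44 over samples left out, and it has no value with the limit of raw Ct 32.

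Signs of uncalled knock-down changes turned as follows. In 2102Ep cells, with RNU44 and RNU48, miR-106b had 0.24, miR-25 0.10, miR-106a 0.16 and miR-20b 0.24, and miR-363 ran from -0.03 to 0.55 with 1 sample left out. In NTera-2 cells, miR-93, miR-106a, miR-18b and miR-20b had 0.11, 0.02, 0.15 and 0.08 with miR-16 as the reference and 0.13, 0.04, 0.17 and 0.10 with the global mean. With 1 sample left out miR-93 ran from -0.21 to 0.04, miR-106a from -0.26 to 0 and miR-18b from -0.14 to 0.13. For the difference between the lines, miR-106b had 0.04 with miR-16, and miR-25, miR-106a and miR-20b had -0.21, -0.18 and -0.20 with U6 and -0.45, -0.42 and -0.45 with RNU44 and RNU48. With 1 sample left out miR-106b ran from -0.29 to 0, miR-25 from -0.09 to 0.09, miR-106a from -0.07 to 0.19 and miR-20b from -0.09 to 0.12.

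Between the NC groups of the lines, beside the values in the report, U6 gave -1.52 for miR-106b, -1.96 for miR-93, -2.47 for miR-25, -0.26 for miR-106a and -1.92 for miR-20b, and 0.35 for miR-363, no longer called. The deposited dCt gave -0.97 for miR-106b, -1.41 for miR-93, -1.93 for miR-25 and -1.37 for miR-20b. Between the siSOX2 groups, 4 members were called with the deposited dCt, 4 with U6 and 3 with RNU44 and RNU48, in place of 7. There the deposited dCt gave -1.15, -1.64, -1.92 and -1.36 for miR-106b, miR-93, miR-25 and miR-20b. U6 gave -1.91 for miR-106b, -2.40 for miR-93, -2.68 for miR-25, -0.44 for miR-106a, -0.12 for miR-18b, -2.12 for miR-20b and -0.34 for miR-363. RNU44 and RNU48 gave -0.26 for miR-25. Leaving out 1 sample changed no member's call between the lines.

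Counts of all assays called in NTera-2 were 13 with RNU44 and RNU48, 15 with the global mean, 11 with the 6 samples alone and 10 to 24 with 1 sample left out, in place of 25. With miR-16, which covered card A only, the count was 14 of 255 assays, in place of 25 of 451. Those in 2102Ep cells were 37 to 53 with 1 sample left out, in place of 61. For the difference they were 34 with RNU44 and RNU48 and 4 to 26 with 1 sample left out, in place of 17. Calls higher and lower in 2102Ep cells were 34 and 13 with RNU44 and RNU48 and 9 and 32 with U6, in place of 20 and 41. In NTera-2 cells they were 9 and 6 with the global mean, 8 and 6 with miR-16, and 4 and 17 with U6, in place of 8 and 17. For the difference they were 2 and 32 with RNU44 and RNU48, 3 and 10 with U6, 9 and 6 with the global mean and 12 and 6 with miR-16, in place of 7 and 10. Between the siSOX2 groups they were 6 and 367 with the deposited dCt, 4 and 223 with U6 and 24 and 275 with RNU44 and RNU48, in place of 159 and 131. The miR-16 counts for the difference were over 232 card A assays, in place of 385. U6 covered card A only wherever 2102Ep samples entered. Its counts were over 264 assays in 2102Ep cells, in place of 432. For the difference and between the siSOX2 groups they were over 233 assays, in place of 385. Counts over unlike numbers of assays cannot be set side by side as shifts. The cause of the shifts was not tested. With 3 samples per group, the knock-down intervals of the 7 members include 0, and changes as large as their ends are not excluded. The intervals were widest for miR-18b, whose Ct was late in 2102Ep cells.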
